A study of Mus musculus with 6 samples.

Results

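A set of 10 genes of protein folding in the endoplasmic reticulum (ER) was compared between NS-DADm and wild type (WT) mouse heart muscle. They were taken by gene symbol from a list drawn up with earlier results of these data known, and comprise Hspa5, Hsp90b1, P4hb, Pdia3, Pdia4, Pdia6, Calr, Canx, Dnajb9 and Xbp1. All 10 were listed in every sample, out of 17891 genes listed in any sample, and all 10 were among the 13130 genes that passed the filter on low counts. RNA was sequenced from 3 NS-DADm samples and 3 WT samples. All mice were on the C57BL/6 background and 6 weeks old. NS-DADm mice carry knock-in mutations, present in the whole body, in the deacetylase activating domains (DADs) of corepressors that include NCOR, the product of Ncor1, while WT mice carry none. RNA came from bulk myocardium, and the labels do not say if the 3 of a group are 3 different mice, so the tests below speak only for the spread between these libraries, which may be technical.

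Proteins that enter the ER are folded by chaperones, which hold unfolded chains, and by foldases, which form and reshuffle disulfide bonds. When unfolded protein accumulates, 3 membrane sensors (IRE1, PERK and ATF6) start the unfolded protein response, which raises transcription of many of these same chaperones and slows translation. In heart muscle cells the ER is continuous with the sarcoplasmic reticulum that stores calcium, and several of the chaperones also bind calcium. These corepressors are nuclear proteins that sit at repressed genes and, by way of their DADs, switch on the histone deacetylase HDAC3.

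Of the 10 genes, only P4hb rose in NS-DADm hearts past an adjusted p of 0.05, by 1.23-fold. The other 9 did not pass the test. Of these, 8 had small positive estimates and Canx had a negative one. Against 1 of 10 called here, 3.20% of all tested genes were called in either direction and 1.79% were called higher (edgeR's quasi-likelihood test, Benjamini-Hochberg adjusted), with 1.41% called lower. With DESeq2 the count was also 1 of 10, against 4.25% of all tested genes. Positive log2 fold changes were found for 9 of the 10, compared with 49.3% of all tested genes, and their median was 0.16, compared with -0.003 over all genes. An unadjusted p under 0.05 was found for 4 of the 10 and for 18.1% of all tested genes. The 10 values come from the same 6 samples and are not independent observations.

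Libraries held 12262523 to 12758311 expected counts in NS-DADm samples and 10183792 to 11205221 in WT samples. FPKM, the count scaled by transcript length and by library depth, is used here for levels, and edgeR's log2 fold changes of NS-DADm over WT for differences. Markers of heart muscle cells were high throughout, their summed FPKM being 76758 to 84268 in NS-DADm and 75535 to 85411 in WT samples, and 0 of 12 were called (edgeR). Transcripts of atrial muscle cells varied widely within both genotypes. The summed FPKM of 7 atrial markers was 3847, 597 and 6680 in NS-DADm 1 to 3 and 558, 292 and 4777 in WT 1 to 3. Ncor1 stood at 23.1, 24.9 and 24.8 FPKM in NS-DADm and 23.3, 21.6 and 23.7 FPKM in WT samples (log2 fold change 0.10, adjusted p = 0.432, edgeR). Hdac3 averaged 29.8 ± 0.80 FPKM in NS-DADm and 29.8 ± 2.0 in WT (SD, n = 3 each). A knock-in need not alter RNA level, so these genes do not check the labels.

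Promoters of ER chaperones are known for the ER stress response element (ERSE). It consists of CCAAT and CCACG separated by 9 bases of any kind and is the element that ATF6 and XBP1 act through together with the factor NF-Y. It was searched on both strands in RefSeq promoters (GRCm38.p6, 250 bases before to 50 bases after each gene's start), which were found for all 10 genes. An exact match was present in 5 of the 10 and in 0.119% of all 32851 promoters. The matches are shown because they separate the 10 genes by promoter. Capitals mark the fixed letters.
Hspa5, 65 to 47 bases before the start: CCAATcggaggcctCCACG
Hsp90b1, 212 to 194 bases before the start: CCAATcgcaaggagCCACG
Hsp90b1, 107 to 89 bases before the start, reverse strand: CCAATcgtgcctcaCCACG
Pdia6, 98 to 80 bases before the start: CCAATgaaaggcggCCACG
Calr, 162 to 144 bases before the start, reverse strand: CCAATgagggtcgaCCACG
Canx, 145 to 127 bases before the start: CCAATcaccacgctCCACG
With the last G left free (CCAAT and CCAC at the same spacing, in 0.365% of promoters, a set that includes every exact match), 2 more genes had a match.
Pdia3, 29 to 12 bases before the start: CCAATcggcggctgCCAC
Pdia4, 107 to 90 bases before the start, reverse strand: CCAATcacgggctgCCAC
These letters did not occur in the windows of P4hb, Dnajb9 and Xbp1. The related elements ERSE-II (ATTGG and CCACG separated by 1 base, in 0.0365% of promoters) and UPRE (TGACGTGG, in 0.676%) occurred in none of the 10. The 250 bases before the start are given for the gene with the highest level and for the gene that rose, so that a promoter with the element can be read beside one without it. Both are on GRCm38.p6, in the direction of transcription, with the ERSE in capitals.
Hspa5 (chr2:34771840-34772089, plus strand): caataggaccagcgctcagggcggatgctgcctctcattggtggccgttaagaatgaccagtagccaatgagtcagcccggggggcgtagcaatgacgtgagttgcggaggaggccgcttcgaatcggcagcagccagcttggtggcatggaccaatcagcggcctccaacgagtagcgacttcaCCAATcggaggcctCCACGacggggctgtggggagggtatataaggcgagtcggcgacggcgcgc
P4hb (chr11:120573254-120573503, minus strand): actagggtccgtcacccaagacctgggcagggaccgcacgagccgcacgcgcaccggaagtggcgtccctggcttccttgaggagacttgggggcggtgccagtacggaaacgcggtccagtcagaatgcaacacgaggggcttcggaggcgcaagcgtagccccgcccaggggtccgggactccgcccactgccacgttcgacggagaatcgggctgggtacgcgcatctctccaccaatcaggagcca
The gene that rose, P4hb, was thus among those without a match. The 5 genes with an exact ERSE had log2 fold changes of 0.26 (Hspa5), 0.23 (Hsp90b1), 0.18 (Pdia6), 0.18 (Calr) and -0.21 (Canx), none of them past the threshold. A match describes these letters and does not show that a factor was bound in these hearts.

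Levels spanned a wide range and kept nearly the same order in both genotypes. Hspa5, Calr and Hsp90b1 were the most abundant, and the ranges of neighbours in this order overlapped in both groups. P4hb came next, without overlap with Hsp90b1 above it. Canx and Pdia3 followed, in overlapping ranges in NS-DADm samples but with Canx above Pdia3 in every WT sample. Pdia6, Dnajb9 and Xbp1 came below them, and Dnajb9 overlapped Xbp1 in NS-DADm samples alone. Pdia4 was the lowest, with Xbp1 2.81-fold above it in NS-DADm and 2.75-fold above it in WT samples.

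**Figure D1:**
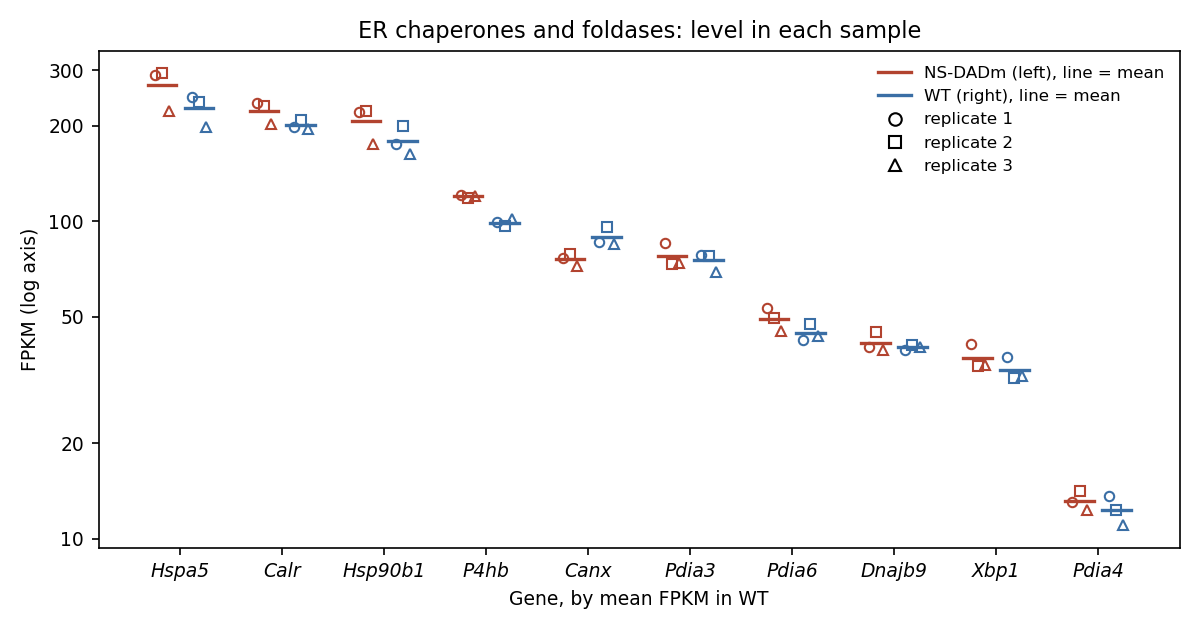
FPKM of the 10 genes in each sample on a log axis, with NS-DADm samples left of WT samples for each gene and a bar at each group's mean. Levels run from Hspa5, at 199 to 293 FPKM, down to Pdia4, at 11.03 to 14.2 FPKM, and P4hb is the gene whose NS-DADm points all lie above its WT points.

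P4hb encodes protein disulfide isomerase, which forms and rearranges disulfide bonds and is also the beta subunit of the collagen prolyl 4-hydroxylases. It stood at 121, 119 and 120.5 FPKM in NS-DADm samples and 99.5, 96.6 and 102 FPKM in WT samples. Every NS-DADm sample exceeded every WT sample, and the spread within each group was small, with a coefficient of variation of 1.06% in NS-DADm and 2.56% in WT samples. It averaged 120.0 ± 1.27 FPKM in NS-DADm hearts and 99.2 ± 2.54 FPKM in WT hearts (SD, n = 3 each). The log2 fold change was 0.30 (SE 0.06, 95% interval 0.18 to 0.42), or 1.23-fold with an interval of 1.13 to 1.34, with an adjusted p of 0.0197 (edgeR). The estimate was steady when any 1 library was left out (0.29 to 0.31), but the adjusted p then ran from 0.0316 to 0.106, and the call held only without WT 3. It was lost without NS-DADm 1 (0.0671), NS-DADm 2 (0.0553), NS-DADm 3 (0.0555), WT 1 (0.079) or WT 2 (0.106). No overlap between groups, in either direction, was found for 23.4% of all tested genes, and with NS-DADm higher for 8.94%. Among the 10 it occurred for P4hb and, in the other direction, Canx.

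Hspa5, which encodes BiP, the ER Hsp70 that holds unfolded chains and keeps the stress sensors inactive, did not pass the test. It stood at 290.3, 293 and 223 FPKM in NS-DADm samples and at 246, 238 and 199 FPKM in WT samples. NS-DADm 1 and 2 lay above every WT sample, while NS-DADm 3 lay within the WT range. The means were 269 ± 39.4 FPKM in NS-DADm and 228 ± 25.2 FPKM in WT hearts (SD, n = 3 each), for a log2 fold change of 0.26 (SE 0.12, 95% interval 0.00 to 0.53, adjusted p = 0.275, edgeR). Hsp90b1 encodes GRP94, the ER Hsp90, and had 222, 224 and 175 FPKM in NS-DADm and 176, 200.4 and 163 FPKM in WT samples. The pattern was that of Hspa5, with NS-DADm 3 below both other NS-DADm samples and WT 3 the lowest of all, for a log2 fold change of 0.23 (SE 0.11, interval -0.02 to 0.48, adjusted p = 0.321, edgeR). Dnajb9 encodes ERdj4, a J-domain partner of BiP that is a target of XBP1. It stood at 40.2, 44.9 and 39.3 FPKM in NS-DADm and 39.4, 40.8 and 40.1 FPKM in WT samples. Its groups overlapped and the log2 fold change was 0.07 (SE 0.08, interval -0.09 to 0.24, adjusted p = 0.672, edgeR).

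The lectin chaperones bind sugar chains on folding glycoproteins, calreticulin (Calr) in the ER lumen and calnexin (Canx) in the membrane, and their estimates had opposite signs. Calr stood at 236, 232 and 203 FPKM in NS-DADm and 198, 209 and 196 FPKM in WT samples. NS-DADm 3 again fell inside the WT range, and the log2 fold change was 0.18 (SE 0.08, interval 0.01 to 0.35, adjusted p = 0.247, edgeR). Canx stood at 76.5, 79.2 and 72.2 FPKM in NS-DADm and 86.0, 96.2 and 85.0 FPKM in WT samples. All 3 NS-DADm samples were below all 3 WT samples, which held for 14.5% of all tested genes. The means were 76.0 ± 3.51 FPKM in NS-DADm and 89.1 ± 6.17 FPKM in WT hearts (SD, n = 3 each), and the log2 fold change of -0.21 (SE 0.08, interval -0.37 to -0.04) did not pass the test (adjusted p = 0.183, edgeR).

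Of the other disulfide isomerases, none passed the test. Pdia3 encodes ERp57, which works with calnexin and calreticulin on glycoproteins, and had 85.6, 73.5 and 74.0 FPKM in NS-DADm and 78.7, 78.1 and 69.3 FPKM in WT samples. NS-DADm 1 was the highest and the other NS-DADm samples were inside the WT range (log2 fold change 0.07, SE 0.08, interval -0.11 to 0.25, adjusted p = 0.723, edgeR). Without NS-DADm 1 the estimate turned to -0.00493. Pdia4 encodes ERp72 and was the least abundant, with 13.04, 14.2 and 12.3 FPKM in NS-DADm and 13.7, 12.3 and 11.03 FPKM in WT samples. Its 315 to 460 counts per library were the fewest of the 10, and its groups overlapped (log2 fold change 0.12, SE 0.10, interval -0.10 to 0.34, adjusted p = 0.58, edgeR). Pdia6 encodes P5, an isomerase that binds BiP, and had 53.5, 49.5 and 45.3 FPKM in NS-DADm and 42.2, 47.7 and 43.6 FPKM in WT samples. NS-DADm 1 and 2 were above every WT sample and NS-DADm 3 was within their range (log2 fold change 0.18, SE 0.08, interval -0.01 to 0.36, adjusted p = 0.291, edgeR).

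**Figure D2:**
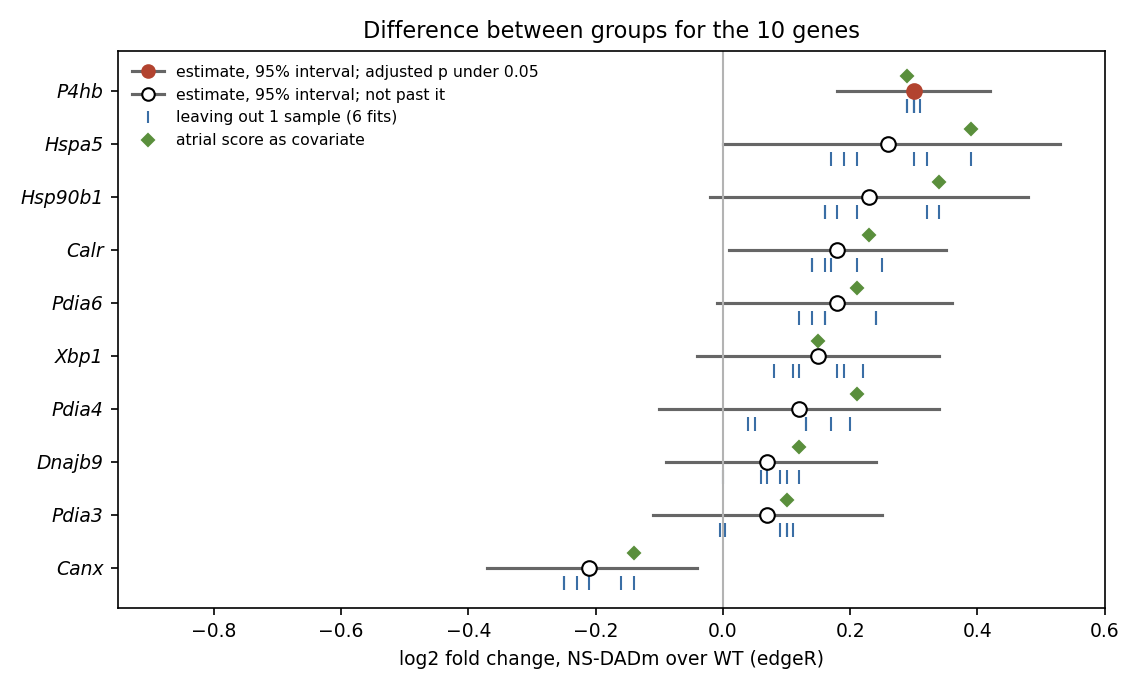
Log2 fold change of NS-DADm over WT for the 10 genes (points, edgeR) with 95% intervals, the estimates when each sample was left out (ticks) and the estimate with the atrial score as a covariate (diamonds). The interval of P4hb, 0.18 to 0.42, is the one whose adjusted p was under 0.05, and Canx is the gene with a negative estimate, -0.21.

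Xbp1 encodes a transcription factor of the response, made in its active form after the sensor IRE1 cuts a short segment out of the mRNA. The gene stood at 40.97, 35.1 and 35.2 FPKM in NS-DADm and 37.5, 32 and 32.5 FPKM in WT samples. The groups overlapped, and the log2 fold change was 0.15 (SE 0.09, interval -0.04 to 0.34, adjusted p = 0.397, edgeR). The removed segment is 26 bases long and lies in exon 4 of Xbp1-201 (GENCODE M21, GRCm38, bases 815 to 840 of the transcript). It was located as the stretch between 2 cuts after the third base of CNGCAG, of which another pair at this spacing lies in exon 1, and is printed in capitals with 15 bases on each side.
Xbp1: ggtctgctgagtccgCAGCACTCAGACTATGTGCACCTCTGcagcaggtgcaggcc
The transcript tables list 2 Xbp1 models, of 2264 and 2238 bases, which differ by 26 bases. The files do not say which bases the shorter one lacks. Its share of the gene's counts was 2.29% in NS-DADm 1 (95% Wilson interval 1.6 to 3.39) and 2.43% in NS-DADm 3 (1.62 to 3.61), and it was not listed in NS-DADm 2. In WT samples the share was 2.34% (1.56 to 3.60), 3.76% (2.61 to 5.45) and 2.99% (2.02 to 4.41). These intervals cover counting error only, and the shares rest on 20.7 to 26.9 estimated counts in the libraries where the model was listed. The shares averaged 1.57 ± 1.36% in NS-DADm and 3.03 ± 0.711% in WT hearts (SD, n = 3 each), with a p of 0.2 in an exact two-sided permutation test, whose smallest possible p at this size is 0.1. Of the 14 tested transcript models of the 10 genes, 0 were called with edgeR, against 0.0972% of all tested transcripts. Of the 14, 1 had an unadjusted p under 0.05 (edgeR) and 1 was called with DESeq2. No share over all transcripts is given here for either of these counts. The single model of P4hb had an adjusted p of 0.0915 (edgeR).

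The samples did not separate by genotype in the summed level of the 10 genes. The summed FPKM was 1179, 1164 and 1001 in NS-DADm 1 to 3 and 1017, 1051 and 941 in WT 1 to 3. NS-DADm 1 and 2 stood apart at the top, and NS-DADm 3 lay between WT samples. NS-DADm 1 held the highest value of the 6 samples for 5 genes and NS-DADm 2 for 4, while WT 3 held the lowest for 5. Within their own groups, NS-DADm 3 was lowest for 7 of the 10 genes and WT 3 for 6. Both of these libraries had many atrial transcripts, as did NS-DADm 1, which was never the lowest in its group. NS-DADm 3 also had the most adipocyte marker RNA, with a summed FPKM over 8 markers of 80.7, 36.5 and 294 in NS-DADm 1 to 3 and 39.4, 31.4 and 97.5 in WT 1 to 3, although Plin1 and Ucp1 were at 0 in some samples.

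**Figure D3:**
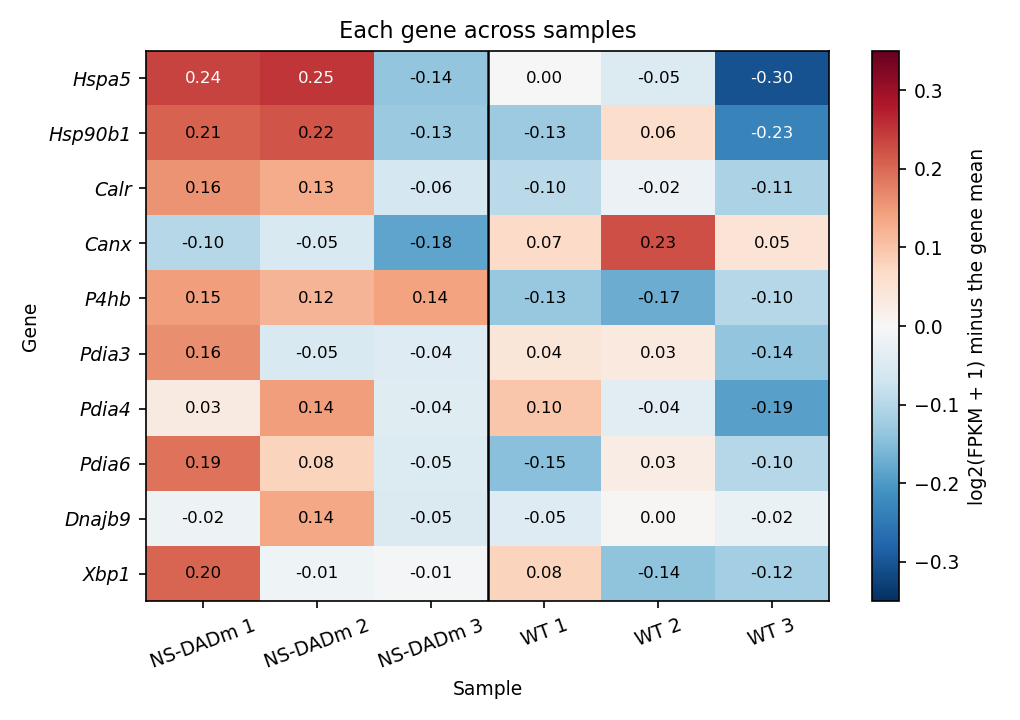
Heat map of log2(FPKM + 1) minus each gene's mean over the 6 samples, genes in rows and samples in columns with NS-DADm left of WT. Values average 0.12 and 0.10 over the 10 genes in NS-DADm 1 and 2, -0.06 in NS-DADm 3 and -0.13 in WT 3, while P4hb separates the genotypes and Canx does so in the opposite direction.

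With the mean log2 CPM of 6 atrial markers as a covariate, Hspa5 passed the threshold along with P4hb, so that 2 of the 10 were called, against 3.37% of all tested genes in the same fit. That score was 7.21, 3.58 and 7.73 in NS-DADm 1 to 3 and 3.21, 1.94 and 7.38 in WT 1 to 3. In this fit the log2 fold change was 0.39 for Hspa5 (adjusted p = 0.0429), 0.29 for P4hb (0.0251) and 0.34 for Hsp90b1 (0.0653, not past the threshold), all with edgeR. Within the 3 libraries of few atrial transcripts (NS-DADm 2 against WT 1 and WT 2), the log2 fold changes were 0.32 for Hspa5, 0.29 for Hsp90b1 and 0.32 for P4hb. Within the 3 libraries of many (NS-DADm 1 and NS-DADm 3 against WT 3), the same genes had 0.39, 0.31 and 0.27. Each of these sets holds a single library of a genotype and was formed after the data were seen, so its values are given as a description without p. The 3 genes were called in the set of few atrial transcripts, as were 7.39% of all its tested genes, by a fit that takes the spread of the lone NS-DADm library from the WT libraries. Canx kept a negative estimate in both, -0.16 with few and -0.17 with many. Pdia3 had -0.05 with few and 0.23 with many atrial transcripts.

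Among markers of other cell types, some of those of macrophages rose in NS-DADm hearts, and no marker of fibroblasts or pericytes passed the test with edgeR. Over all tested genes, 1.79% were called higher, 3.20% were called in either direction and 18.1% had an unadjusted p under 0.05 (edgeR). A positive log2 fold change was found for 49.3% of them. Of 12 macrophage markers, 6 rose (Csf1r, C1qa, C1qb, C1qc, Folr2 and Lyve1), and all 12 had positive log2 fold changes. Their summed FPKM was 417 to 474 in NS-DADm and 321 to 353 in WT samples. Of the fits that left out a library, the call held in all 6 for C1qa and C1qc, in 5 for C1qb, in 4 for Folr2, in 2 for Csf1r and in 1 for Lyve1, with adjusted p up to 0.12 (edgeR). Of 10 fibroblast markers, 0 were called by edgeR, 5 had an unadjusted p under 0.05, and 8 had positive and 2 negative log2 fold changes. They summed to 605 to 754 FPKM in NS-DADm and 623 to 725 FPKM in WT samples. Most of that sum was Dcn. Col1a1, Mfap5 and Postn, chosen after their values were seen, had log2 fold changes of 0.32, 0.34 and 0.39. For Col1a1, a collagen chain, the adjusted p was 0.127 with edgeR and 0.0473 with DESeq2. The negative ones were Lum at -0.24, lower in every NS-DADm sample, and Tcf21 at -0.16. Dcn had 0.06, Dpt 0.02 and Pdgfra 0.00. Pericyte and smooth muscle markers summed to 313 to 353 FPKM in NS-DADm and 384 to 407 FPKM in WT samples, without overlap, and 0 of 10 were called by edgeR, 6 being at an unadjusted p under 0.05. Rgs5, a pericyte marker chosen after its values were seen, had a log2 fold change of -0.33. Its adjusted p was 0.0793 with edgeR and 0.00686 with DESeq2. It was lower in every NS-DADm sample, as were Kcnj8, Abcc9 and Pdgfrb and 14.5% of all tested genes. The list was mixed, with 6 negative and 4 positive log2 fold changes. The positive ones were Cnn1 (1.32), Tagln (0.50), Myh11 (0.49) and Mylk (0.29), with Cnn1 and Myh11 at an unadjusted p under 0.05 (edgeR). Plasma and B cell markers summed to 4.71 to 8.63 FPKM in NS-DADm and 6.18 to 6.92 FPKM in WT samples, and Jchain, Tnfrsf17, Ms4a1 and Derl3 were at 0 in some samples. In whole tissue, fewer cells of a type and less RNA per cell cannot be told apart. The part of the macrophage, fibroblast and pericyte transcripts in the levels of P4hb and Canx was not tested.

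Among 109 other tested genes of ER protein folding, 2 rose and 2 fell (edgeR), with 6 called by DESeq2 and 23 at an unadjusted p under 0.05. Of all tested genes, edgeR called 3.20% and DESeq2 4.25%, and 18.1% had an unadjusted p under 0.05. The median log2 fold change of the 109 was 0.04, with 65 positive and 44 negative, against 49.3% positive over all tested genes. Groups did not overlap, with NS-DADm higher, for 13 of the 109 and, with NS-DADm lower, for 16. Over all tested genes these shares were 8.94% and 14.5%. The counts of each list below stand against the same shares. The lists cover the sensors, the cofactors of BiP, other disulfide isomerases, the calnexin cycle, ER-associated degradation, collagen folding and the outputs of PERK and ATF6.

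The genes that rose belong to the list of PERK and ATF6 outputs, where 2 of 12 tested genes were called higher, none lower, and 11 of 12 had positive log2 fold changes with a median of 0.24. Ppp1r15a encodes GADD34, which restores translation after PERK has slowed it. It stood at 22.1, 24.0 and 18.2 FPKM in NS-DADm and 10.05, 12.1 and 14.03 FPKM in WT samples. The groups did not overlap, and the log2 fold change was 0.85 (SE 0.14, 1.81-fold, adjusted p = 0.0112, edgeR), a call lost without WT 2 (0.057). Atf4, the transcription factor whose translation PERK signalling favours, stood at 73.3, 72.1 and 70.7 FPKM in NS-DADm and 59.3, 49.4 and 57.7 FPKM in WT samples. Its groups did not overlap either (log2 fold change 0.40, SE 0.07, 1.32-fold, adjusted p = 0.0172, edgeR), and the call was lost without NS-DADm 1 (0.0598), NS-DADm 2 (0.0524) or WT 2 (0.0775). Both genes also respond to other stresses than that of the ER. Wfs1, an ER membrane protein, had a log2 fold change of 0.24 (adjusted p = 0.0815, edgeR). Ddit3, which encodes CHOP and was chosen after its values were seen, stood at 21.8, 14.9 and 17.1 FPKM in NS-DADm and 18.4, 17.3 and 18.02 FPKM in WT samples, with overlapping groups (log2 fold change 0.03, adjusted p = 0.935, edgeR).

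In the list of other disulfide isomerases and oxidases, 1 of 18 tested genes fell and none rose with edgeR. DESeq2 called 2, Tmx1 and Tmx4, both lower. Of the 18, 6 had an unadjusted p under 0.05 (edgeR), and the median log2 fold change was -0.07. The gene that fell with edgeR was Tmx1, a membrane-bound isomerase of the thioredoxin family. It stood at 34.1, 32.1 and 33.4 FPKM in NS-DADm and 52.7, 47.7 and 43.9 FPKM in WT samples. Every NS-DADm sample was below every WT sample (log2 fold change -0.51, SE 0.08, adjusted p = 0.00724, edgeR), and the call held in all 6 fits that left out a library. Of the 3 other TMX genes in the list, Tmx4 had a log2 fold change of -0.30 (adjusted p = 0.0629 with edgeR and 0.0388 with DESeq2). Tmx2 had -0.25 (adjusted p = 0.0903, edgeR). Tmx3, chosen after its values were seen, had -0.23 (adjusted p = 0.185, edgeR). The FPKM of each was lower in every NS-DADm sample than in every WT sample, which held for 14.5% of all tested genes.

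In the list of prolyl isomerases and collagen folding, 1 of 15 tested genes fell and none rose with edgeR, while DESeq2 called 2, Fkbp10 lower and Plod1 higher, with 10 positive log2 fold changes and a median of 0.12. Fkbp10, a prolyl isomerase of collagen folding, stood at 13.2, 12.8 and 13.7 FPKM in NS-DADm and 18.3, 16.3 and 20.4 FPKM in WT samples. Its groups did not overlap (log2 fold change -0.45, SE 0.09, adjusted p = 0.0261, edgeR), but the call held only in the fit without WT 2 and was lost in the other 5, with adjusted p up to 0.0902. P4ha1, a catalytic alpha subunit that pairs with P4hb, stood at 16.02, 15.1 and 16.3 FPKM in NS-DADm and 12.6, 12.95 and 15.1 FPKM in WT samples. Every NS-DADm sample was above every WT sample, which held for 8.94% of all tested genes. The log2 fold change was 0.24 without passing the test (adjusted p = 0.137, edgeR). P4ha2, another alpha subunit, chosen after its values were seen, averaged 18.3 FPKM in NS-DADm and 18.7 FPKM in WT samples. Its log2 fold change was -0.01 (adjusted p = 0.984, edgeR). P4ha3 was not among the tested genes. Plod1, a lysyl hydroxylase of collagen, had 0.30 (adjusted p = 0.0589 with edgeR and 0.0209 with DESeq2).

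In 4 lists no gene was called with edgeR or with DESeq2. Of 12 tested sensors and membrane-bound factors, 1 had an unadjusted p under 0.05, and the smallest p-values belonged to Nfyc (log2 fold change -0.16, adjusted p = 0.221), Creb3l1 (0.40, 0.286) and Atf6 (-0.21, 0.459). The other sensors, chosen after their values were seen, had 0.06 for Ern1, which encodes IRE1, and -0.01 for Eif2ak3, which encodes PERK. Of 19 tested cofactors of BiP and translocon genes, 3 had an unadjusted p under 0.05, and the leading ones were Dnajc3 (0.24, adjusted p = 0.0978), Sdf2l1 (0.62, 0.131) and Hspa13 (-0.20, 0.219). Of 17 tested genes of the calnexin cycle, 3 had an unadjusted p under 0.05, and Edem1 (0.27, 0.131), Calr3 (-0.23, 0.218) and Uggt2 (-0.31, 0.237) came first. Of 16 tested genes of ER-associated degradation, 0 had an unadjusted p under 0.05, with Faf2 at -0.19, Ube2g2 at 0.15 and Derl1 at 0.12. Mitochondrial chaperones and proteases, taken as a list from another compartment, had 0 of 16 called with either tool, 3 at an unadjusted p under 0.05 and a median log2 fold change of 0.01. Its smallest p-values belonged to Htra2 (-0.29, adjusted p = 0.105), Clpx (0.27, 0.121) and Oma1 (-0.17, 0.256).

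**Figure D4:**
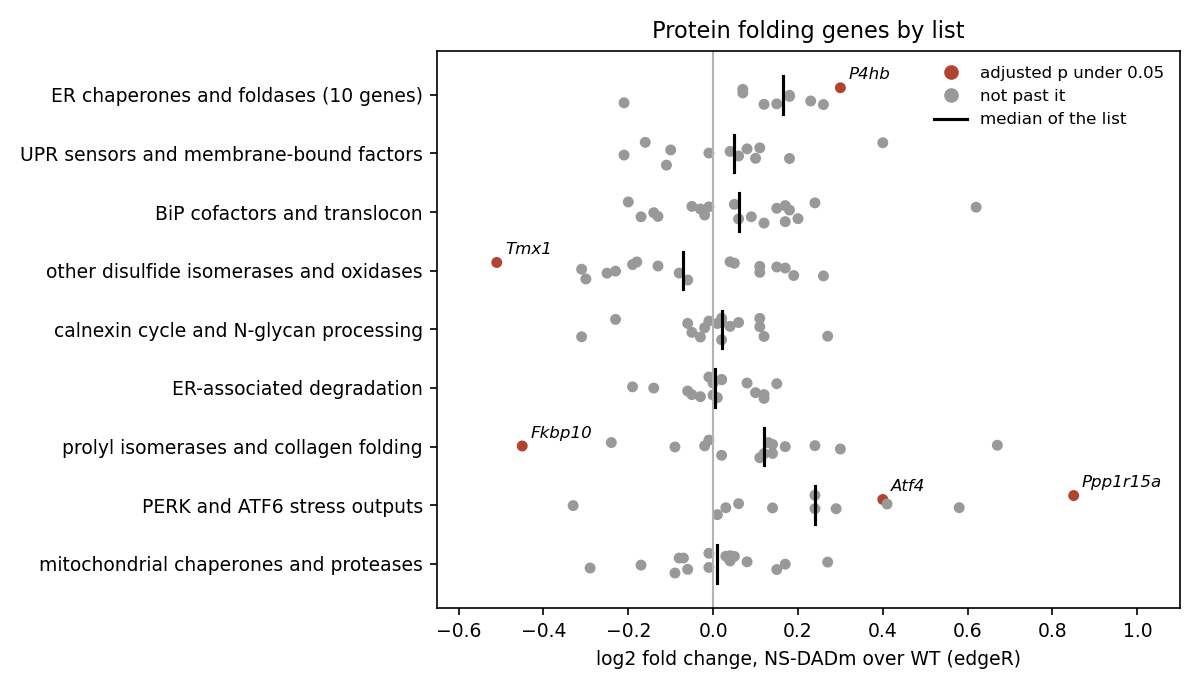
Log2 fold change of NS-DADm over WT for each tested gene, one row per list, with the list's median as a bar and genes of adjusted p under 0.05 in red. The bar stands at 0.16 for the 10 chaperones and foldases, 0.24 for the outputs of PERK and ATF6, -0.07 for the other disulfide isomerases and 0.01 for the mitochondrial list.

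The genes of the other ER lists whose profile over the 6 samples was nearest to that of Hspa5 were Fkbp2, Hyou1 and Sil1. Their mean absolute difference from Hspa5, in log2(FPKM + 1) centred on each gene's mean, was 0.092, 0.103 and 0.105, and 94 genes of at least 5 FPKM were compared. Among the 10, Hsp90b1 was nearer, at 0.063, and Calr stood at 0.099 and Pdia4 at 0.104. Fkbp2, an ER prolyl isomerase, stood at 29.2, 24.8 and 23.3 FPKM in NS-DADm and 24.4, 26.2 and 21.2 FPKM in WT samples. Hyou1, a nucleotide exchange factor of BiP, stood at 13.3, 11.2 and 9.60 FPKM in NS-DADm and 10.7, 10.4 and 10.8 FPKM in WT samples. Sil1, another exchange factor of BiP, stood at 13.9, 12.9 and 11.9 FPKM in NS-DADm and 11.7, 11.9 and 11.4 FPKM in WT samples. In all 3 genes NS-DADm 3 was the lowest NS-DADm sample, as it was for Hspa5, which their selection by profile makes likely. The log2 fold changes were 0.14, 0.12 and 0.17 in the same order, none past the threshold. These genes are described by likeness of profile, with no p, over samples that share depth and tissue makeup.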

How the data were processed

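RNA of mouse myocardium was taken from frozen tissue (Trizol, then a Qiagen kit) and sequenced as libraries made by BGI procedures, per the labels' protocols. The submitters' processing notes name the aligner HISAT. Estimator, genome build and annotation: not given in the sources used here, so no gene coordinates are taken from the tables. The authors deposited expected counts (estimated reads per gene or transcript) and FPKM for each sample, per the file headers. The deposited tables list features with an FPKM of at least 0.01, and an unlisted feature was taken as 0. In each sample 1 row had no symbol and was left out, with at most 0.00032% of counts.

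Expected counts were rounded, filtered with filterByExpr, scaled by TMM and tested with edgeR 4.0.16 (quasi-likelihood test, R 4.3.3) over 13130 genes and 17498 transcripts, with Benjamini-Hochberg adjustment over all of them and a threshold of 0.05. The code was tested on simulated data, with the same biological coefficient of variation for every gene. There, 1.5% of 65 genes changed 1.25-fold and 51.4% of 70 genes changed 1.5-fold were called. A gene that was not called may thus still differ by such a fold. The biological coefficient of variation was 0.106. No library was a copy of another. WT 1 and WT 2 were the most alike, with a chi-square of count differences per gene of 3.49. The next pair, NS-DADm 1 and NS-DADm 3, had 7.16. These values do not tell whether libraries came from the same mouse. Alternatives were DESeq2 1.42.0, other size factors, other filters, a threshold of 0.1, a replicate block, limma 3.58.1 on log2(FPKM + 1) and log2(FPKM + 0.1), thinning to 10183772 counts, an atrial covariate, and leaving out each sample. Fits within libraries of few or many atrial transcripts were added after the data were seen. Intervals for shares are 95% Wilson intervals. Named genes are the 10, those called or with the 3 smallest p in each list, the 3 nearest to Hspa5, and the targeted genes, of which 1 is not reported here. Other genes, marker genes among them, were chosen after their values were seen. The members and lists were chosen with earlier results of these data known. Promoters come from RefSeq (GRCm38.p6), and 17852 gene identifiers matched its gene table.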

Additional observations from a re-analysis of the deposited data

How the results depend on the processing

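Of 666 gene estimates under alternatives, 618 kept direction and side of the threshold, 19 were weaker, 26 stronger and 3 reversed. The reversed ones were Pdia3 without NS-DADm 1 (-0.00493) and within libraries of few atrial transcripts (-0.05), and Hyou1 without NS-DADm 1 (-0.00244). Leaving out a library gave Pdia3 -0.00493 to 0.11 and Hyou1 -0.00244 to 0.24. The cause was not tested.

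Of all tested genes, 420 were called in the comparison as reported, 272 with limma on log2(FPKM + 1), 267 with limma on log2(FPKM + 0.1), 820 at an adjusted p of 0.1, 979 within libraries of few atrial transcripts, and 0 within those of many, where 1119 had an unadjusted p under 0.05. Leaving out 1 library gave 117 to 382 calls, with 117 without WT 2, 149 without WT 1, 181 without NS-DADm 1 and 273 without NS-DADm 2.

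Of the 10 chaperones and foldases, 1 was called as reported, 2 with the atrial covariate, and 0 to 1 when a library was left out. Calls within libraries of few or many atrial transcripts are not given, since each set holds a single library of a genotype. Of the other ER genes, 4 were called, 10 at an adjusted p of 0.1, 12 with few and 0 with many atrial transcripts, and 2 to 4 when a library was left out. Of the transcript models of the 10, 0 were called, and 1 with DESeq2.

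The replicate numbers share no stated origin, and the deviations of same-numbered samples correlated at -0.0503, 0.33 and 0.398. A replicate block gave 895 calls over all genes, 3 among the 10 (Hspa5, P4hb and Canx) and 8 among the other ER genes. Each of the 10 genes had at least 315 counts in every library, while the share of the shorter Xbp1 model rested on at most 26.9.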
